A study of Mus musculus with 6 samples.

Results

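The genes described here are the inhibitors of cyclin-dependent kinases and the pocket proteins, 10 genes in 3 families. The CIP/KIP family has Cdkn1a, Cdkn1b and Cdkn1c, the INK4 family has Cdkn2a, Cdkn2b, Cdkn2c and Cdkn2d, and the RB family has Rb1, Rbl1 and Rbl2. They were chosen by name and not by their values: a probe set belongs when the platform annotation names exactly 1 gene for it and that gene is one of the 10. Of 45037 non-control probe sets, 17 belong, 5 of CIP/KIP, 4 of INK4 and 8 of RB genes, and all 10 genes, of 18193 measured in all, had at least 1. Cdkn1c, Cdkn2a, Cdkn2b, Cdkn2c and Cdkn2d have 1 probe set each, so for these genes no second probe set checks the value.

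CIP/KIP proteins (p21, p27 and p57) bind complexes of cyclins with cyclin-dependent kinases and hold back entry into S phase, while INK4 proteins (p15, p16, p18 and p19) bind the kinases Cdk4 and Cdk6 alone. These kinases phosphorylate the pocket proteins pRb, p107 (Rbl1) and p130 (Rbl2), which otherwise bind E2F factors and keep genes of DNA replication and mitosis silent. In dividing cells Rbl1 is itself a target of E2F, whereas p130 is known as the pocket protein of resting cells. In bone marrow, Cdkn1c and Cdkn1a are known for keeping blood stem cells at rest, and Cdkn2c and Cdkn2d for roles in maturing blood cells.

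The series holds 6 Affymetrix MOE430_2 arrays of RNA from marrow cells of wild-type C57BL/6 mice, sorted fresh and given no treatment. The 3 Ebf2-positive arrays measured CD45-negative, TER119-negative and CD31-negative cells positive for Ebf2, a transcription factor of immature mesenchymal cells, and the 3 Ebf2-negative arrays measured cells of the same gate without Ebf2. The gate leaves out cells with the leukocyte protein CD45, the red cell marker TER119 and the endothelial protein CD31. RNA came from 1000 or 2000 cells a sample. The age of the mice, how Ebf2 was detected, whether cells of several mice were pooled and which array had which cell number are unknown here, and nothing says that the arrays of a group came from separate mice, so that p-values describe the spread among these arrays alone, which may be technical.

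The signal is log2 of the RMA intensity, and every difference is Ebf2-positive minus Ebf2-negative with n = 3 arrays in each group. A probe set is called dim in a group where its mean lies under 3.74, the median of all non-control probe sets. Ebf2 stood at 8.13, 8.80 and 8.04 in Ebf2-positive cells, against 3.10, 4.02 and 3.84 in Ebf2-negative cells. Of the markers measured, 12 of 12 fibroblast genes and 9 of 11 pericyte and smooth muscle genes were called higher in Ebf2-positive cells, and 15 of 16 erythroid genes were called lower. The summed linear signal of the erythroid genes lay between 741 and 1223 on the Ebf2-positive arrays and between 16356 and 17931 on the Ebf2-negative arrays, so erythroid transcripts were abundant in Ebf2-negative cells although the gate leaves out TER119-positive cells. Genes of leukocytes (5 of 10), megakaryocytes (5 of 6) and basophils (5 of 6) were called lower as well. Without Ebf2-negative replicate 3, 3 leukocyte and 3 basophil genes were lower, and without Ebf2-positive replicate 2, 8 leukocyte genes. Marrow reticular genes (0 of 9) were not called, and 1 of 10 endothelial and 1 of 7 B-lineage genes were called higher. That B-lineage gene was Ebf1, at a mean of 10.28 in Ebf2-positive cells against 6.17 in Ebf2-negative cells. The median difference of the B-lineage list was 0.09. Of 10 myeloid genes, with a median difference of -0.40, 2 were called higher. With single arrays left out, 0 to 2 of them were higher, 0 without Ebf2-negative replicate 3, and 4 were lower without Ebf2-positive replicate 2. On the second principal component, Ebf2-positive replicate 2 scored -113 and its group's other arrays 57.2 and 55.7. Differences are relative to the other genes on an array: the median difference over all genes was 0.07, which centring on the 75th percentile raised by 0.12 and centring on the poly-A controls lowered by 2.23. Any gene that was higher by less than 2.23 was therefore lower with the poly-A centring. The mean log2 signal of these controls was 11.08, 11.10 and 11.43 on the Ebf2-positive arrays. On the Ebf2-negative arrays it was 9.39, 7.96 and 9.58, a wide spread, so the size of this shift is not exact. The share of calls that were higher was 44.3%, against 1.96% with the poly-A centring. In RNA of mixed cells, fewer cells of a type and less RNA per cell cannot be told apart.

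Of the 10 genes, 4 differed between the groups. Cdkn1a and Cdkn2b rose and Rbl1 and Cdkn2c fell in Ebf2-positive cells, relative to the other genes on the arrays (limma across all genes with Benjamini-Hochberg adjustment at 0.05). Over all 18193 genes, 24.4% were called, 10.8% higher and 13.6% lower, and whether 4 of 10 exceeds that share was not tested. The same 4 genes were those whose groups did not overlap, a property of 43.0% of all genes. The median difference of the 10 genes was -0.03, beside 0.07 for all genes. With the poly-A centring, Cdkn1a (-0.41) and Cdkn2b (-0.63) were lower in Ebf2-positive cells without a call, and so was Cdkn1c (-0.38). Rbl1 had the largest difference among them, at rank 637 of 18193 genes by size.

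**Figure D1:**
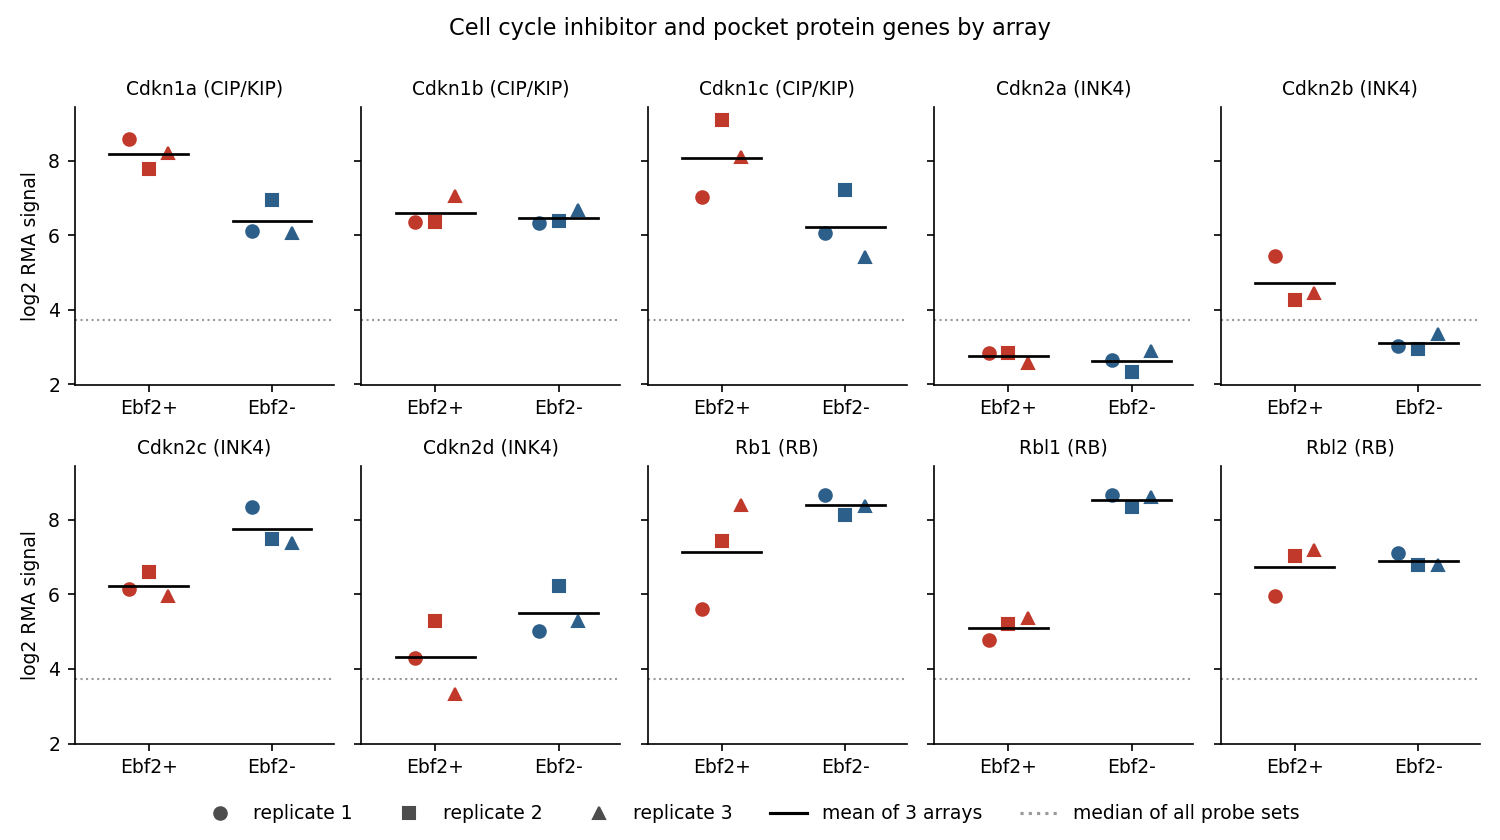
Log2 RMA signal of the brightest probe set of each of the 10 genes, a panel a gene, with Ebf2-positive arrays on the left and Ebf2-negative arrays on the right of each panel; symbols mark replicates, bars the mean of 3 arrays and the dotted line the median of all probe sets. Rbl1 lies between 4.77 and 5.36 in Ebf2-positive cells and between 8.34 and 8.67 in Ebf2-negative cells, while Rb1 and Rbl2 overlap.

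The start regions of the 4 called genes are shown so that those of the genes that fell, Rbl1 and Cdkn2c, can be set beside those of the genes that rose, Cdkn1a and Cdkn2b. Each line gives the 250 bases before a RefSeq transcript start on GRCm38.p6, 5′ to 3′ on the gene's strand, with motif matches in capitals.
Rbl1, chr2:157204535-157204784, - strand: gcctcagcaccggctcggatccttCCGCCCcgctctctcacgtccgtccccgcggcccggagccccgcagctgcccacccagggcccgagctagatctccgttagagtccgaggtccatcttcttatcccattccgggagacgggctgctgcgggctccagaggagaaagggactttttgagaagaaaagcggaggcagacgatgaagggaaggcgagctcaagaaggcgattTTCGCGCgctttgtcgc
Cdkn2c, chr4:109666757-109667006, - strand: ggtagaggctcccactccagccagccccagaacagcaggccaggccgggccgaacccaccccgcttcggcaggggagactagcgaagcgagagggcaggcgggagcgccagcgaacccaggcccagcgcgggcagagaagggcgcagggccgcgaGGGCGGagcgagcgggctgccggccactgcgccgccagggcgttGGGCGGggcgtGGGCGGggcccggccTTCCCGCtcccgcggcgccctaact
Cdkn1a, chr17:29093519-29093768, + strand: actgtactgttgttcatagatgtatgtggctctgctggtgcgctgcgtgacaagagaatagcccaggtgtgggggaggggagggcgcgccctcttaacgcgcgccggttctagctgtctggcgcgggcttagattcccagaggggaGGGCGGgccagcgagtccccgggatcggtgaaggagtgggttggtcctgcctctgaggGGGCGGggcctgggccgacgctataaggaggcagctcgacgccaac
Cdkn2b, chr4:89311033-89311282, - strand: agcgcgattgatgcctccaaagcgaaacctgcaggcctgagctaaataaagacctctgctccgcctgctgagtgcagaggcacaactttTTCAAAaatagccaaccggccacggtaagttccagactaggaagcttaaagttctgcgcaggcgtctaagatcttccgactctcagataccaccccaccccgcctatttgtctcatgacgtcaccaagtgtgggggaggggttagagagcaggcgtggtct
Searched on both strands were the E2F-like motifs TTCGCGC and TTGGCGC and TTCCCGC and TTGCCGC, the cell cycle motif CHR as TTTGAA or TTCGAA, and the SP/KLF motif GGGCGG, none of which is contained in another. The Rbl1 window holds TTCGCGC 10 bases before the start and a reverse SP/KLF match 220 bases before it. In Cdkn2c, TTCCCGC ends 18 bases before the start, and 3 SP/KLF matches lie upstream of it. Cdkn1a holds 2 SP/KLF matches and Cdkn2b a reverse CHR match. Over all 32851 windows of the table, 7.89% held an E2F-like match, 17.1% a CHR match and 32.7% an SP/KLF match. Of the members, 8 of 10 have 11 windows in the table, of which 3 held an E2F-like, 2 a CHR and 6 an SP/KLF match; the third E2F-like match lies before a start of Cdkn2a, which was not called. Cdkn1a and Cdkn2c each have a second window with 0 matches, which is not printed, because the window with the most matches was chosen for each gene. The shares over all windows involve no such choice. Cdkn1c and Rb1 have no window here. A match describes letters and shows no binding.

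In the CIP/KIP family, Cdkn1a rose in Ebf2-positive cells, and Cdkn1b and Cdkn1c did not pass the test. Cdkn1a, the inhibitor induced by p53, stood at 8.59, 7.77 and 8.20 on the Ebf2-positive arrays, against 6.11, 6.94 and 6.07 on the Ebf2-negative arrays (probe set 1424638_at). The lowest Ebf2-positive array lay above the highest Ebf2-negative array. The difference was 1.82 (SE 0.33), or 3.52-fold (limma, adjusted p = 0.0102), and it kept its call without any one array (adjusted p 0.0104 to 0.0464). Its second probe set, 1421679_a_at, read 5.08, 5.58 and 4.93 against 4.08, 4.42 and 4.54. These groups did not overlap either, but the smaller difference of 0.85 missed the threshold among all probe sets (adjusted p = 0.0684).

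Cdkn1b, the inhibitor whose level is set largely by protein turnover, did not pass the test: it stood at 6.35, 6.35 and 7.06 in Ebf2-positive cells, against 6.33, 6.39 and 6.69 in Ebf2-negative cells. The difference was 0.12, with a 95% interval from -0.52 to 0.75 (adjusted p = 0.783). The groups overlapped, although Ebf2-positive replicate 3 lay above all Ebf2-negative arrays. The other Cdkn1b probe set was dim in both groups, at 2.68 ± 0.58 and 3.10 ± 0.22 (SD, n = 3; limma adjusted p = 0.445).

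Cdkn1c, the imprinted inhibitor expressed from the maternal copy, stood at 7.04, 9.09 and 8.10 in Ebf2-positive cells, against 6.06, 7.20 and 5.42 in Ebf2-negative cells. Replicate 2 was the highest of each group, and Ebf2-negative replicate 2 lay above Ebf2-positive replicate 1, so the groups overlapped. The difference of 1.85 was as large as that of Cdkn1a, but its SE of 0.64 was wider and it did not pass (adjusted p = 0.0863, 95% interval 0.30 to 3.40). It passed without Ebf2-positive replicate 1 (2.37, adjusted p = 0.0459), and without each other array adjusted p ran up to 0.241. The mean signal of the marrow reticular markers was also highest on replicate 2 of each group, at 7.48, 8.86 and 7.39 in Ebf2-positive cells and 7.79, 9.16 and 7.85 in Ebf2-negative cells. So were those of fibroblast, endothelial, megakaryocyte and myeloid markers, 5 of the 10 marker lists in all. The part of any of these cells in the Cdkn1c signal was not tested.

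Cdkn2b and Cdkn2c of the INK4 family moved in opposite directions. Cdkn2b, the inhibitor induced by transforming growth factor beta, stood at 5.43, 4.25 and 4.45 in Ebf2-positive cells, against 3.02, 2.96 and 3.35 in Ebf2-negative cells, where it was dim. All Ebf2-positive arrays lay above all Ebf2-negative arrays, by 1.6 on average (SE 0.34, 3.03-fold, limma adjusted p = 0.0178), a fold that is not exact because the signal in Ebf2-negative cells was at the low end of the range. Leaving out Ebf2-negative replicate 1 ended the call (adjusted p = 0.0652), as did leaving out Ebf2-negative replicate 2 (adjusted p = 0.0627), and so did a setting with 16 added to the intensities before log2 (0.80, adjusted p = 0.0566). Cdkn2a, the gene of both p16 and the p53 activator ARF, is read by a single probe set for several transcripts, which cannot tell the pair apart. It was dim in both groups, at 2.85, 2.85 and 2.57 in Ebf2-positive cells and 2.66, 2.34 and 2.89 in Ebf2-negative cells, and differed by 0.13 (adjusted p = 0.718). A signal this low does not show whether Cdkn2a was expressed.

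Cdkn2c, an INK4 inhibitor of maturing lymphoid and erythroid cells, stood at 6.13, 6.60 and 5.96 in Ebf2-positive cells, against 8.35, 7.48 and 7.38 in Ebf2-negative cells. The groups were apart, and the gene fell by 1.51 (SE 0.33, 2.84-fold, limma adjusted p = 0.0190). Without Ebf2-positive replicate 1 or replicate 3 the call was narrowly lost (adjusted p = 0.0532 and 0.0517). Cdkn2d, its close relative, did not pass, at 4.29, 5.30 and 3.34 in Ebf2-positive cells and 5.02, 6.22 and 5.28 in Ebf2-negative cells. Replicate 2 was again the highest of each group, the groups overlapped by a single array, and the difference was -1.20 (95% interval -2.53 to 0.13, adjusted p = 0.176).

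Of the pocket proteins, Rbl1 fell 10.8-fold in Ebf2-positive cells, whereas Rb1 and Rbl2 did not pass. Rbl1 stood at 4.77, 5.20 and 5.36 in Ebf2-positive cells, against 8.67, 8.34 and 8.60 in Ebf2-negative cells (probe set 1424156_at). The nearest arrays of the 2 groups were far apart, and the spread within each group was small (SD 0.31 and 0.17). The difference was -3.43 (SE 0.23, 10.8-fold, limma adjusted p = 4.08e-04), and it lay between -3.55 and -3.26 without any one array, with adjusted p at most 0.00431. A second probe set, 1425166_at, read 3.0, 1.84 and 2.76 in Ebf2-positive cells, where it was dim, against 5.86, 5.69 and 5.42 in Ebf2-negative cells (difference -3.12, adjusted p = 0.00298 among probe sets). The remaining Rbl1 probe sets were dim in both groups and pointed in opposite directions, 1432604_at by -1.08 (adjusted p = 0.0567) and 1454293_at by 0.30 (adjusted p = 0.279), and neither passed.

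Rb1, the founding pocket protein, varied most among the 10 genes within the Ebf2-positive group. It stood at 5.62, 7.43 and 8.39 in Ebf2-positive cells, against 8.66, 8.13 and 8.36 in Ebf2-negative cells, with SDs of 1.41 and 0.27. Ebf2-positive replicate 1 alone was far below all other arrays, and Ebf2-positive replicate 3 was within the Ebf2-negative range. The difference of -1.24 (adjusted p = 0.242) became -0.48 (adjusted p = 0.411) without Ebf2-positive replicate 1. The other Rb1 probe set, 1444400_at, was dim in both groups, at 2.20, 4.04 and 2.52 in Ebf2-positive cells and 3.68, 2.14 and 2.43 in Ebf2-negative cells. Its groups overlapped (difference 0.17, adjusted p = 0.880 among probe sets), and the mean of both probe sets differed by -0.54 (adjusted p = 0.503).

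Rbl2, the pocket protein of resting cells, was also lowest on Ebf2-positive replicate 1. It stood at 5.95, 7.02 and 7.20 in Ebf2-positive cells and 7.10, 6.80 and 6.79 in Ebf2-negative cells. Unlike Rb1, it was higher on Ebf2-positive replicate 3 than on any Ebf2-negative array. Its difference was -0.17 with a 95% interval from -1.03 to 0.69 (adjusted p = 0.767), and 0.21 without Ebf2-positive replicate 1 (adjusted p = 0.533). The second Rbl2 probe set, 1418146_a_at, was likewise lowest on Ebf2-positive replicate 1, at 2.36, 4.26 and 4.70 against 4.29, 3.98 and 3.83. Ebf2-positive replicates 1 to 3 had a Gapdh ratio, of the control probe set near the 3' end over that near the 5' end, of 25.4, 8.45 and 9.99, and Ebf2-negative replicates one of 27.6, 11.2 and 10.9. It rises with loss of the 5' part of transcripts, and was highest on replicate 1 of each group. The like ratio for actin was 31.4, 14.0 and 27.3 on Ebf2-positive and 24.2, 15.9 and 19.5 on Ebf2-negative replicates, so by actin Ebf2-positive replicate 3 was nearly as high as replicate 1. Rb1 and Rbl2 were highest in the Ebf2-negative group on its replicate 1, and the part of 3' bias in these signals was not tested.

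**Figure D2:**
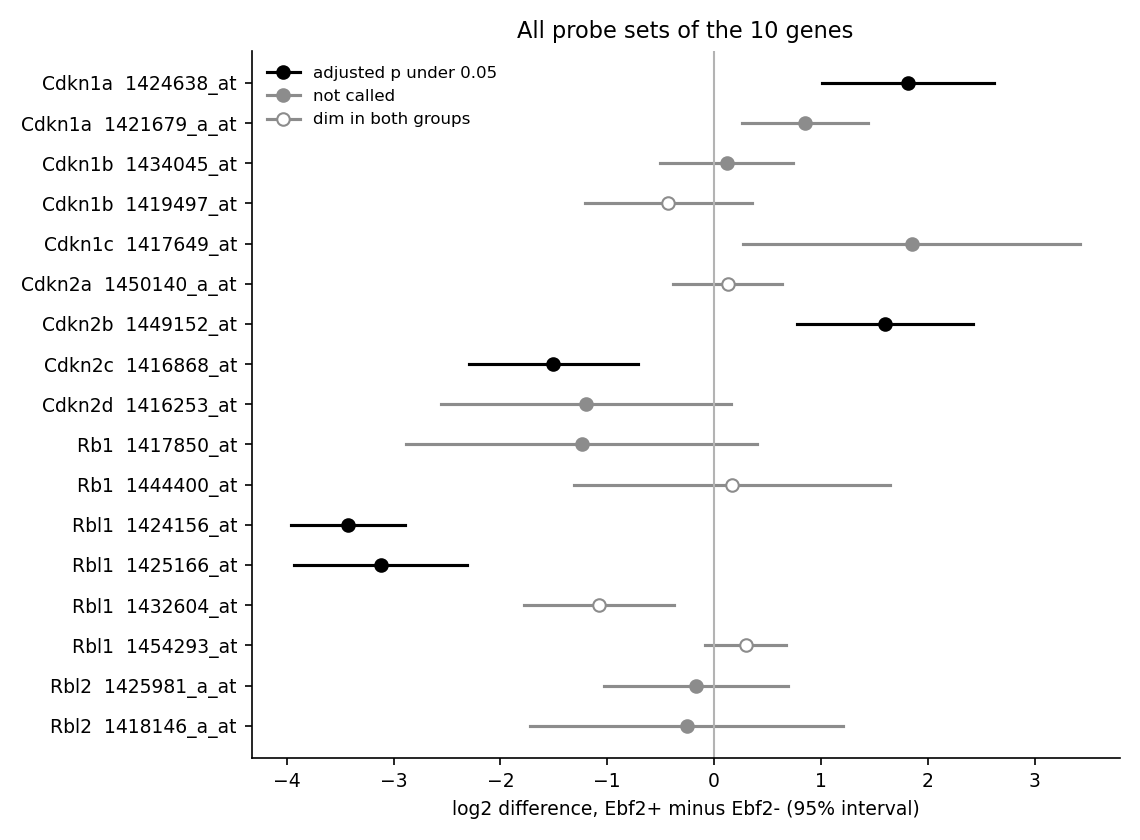
Log2 difference, Ebf2-positive minus Ebf2-negative, of all 17 probe sets with its 95% interval from limma; black marks an adjusted p under 0.05 among 45037 probe sets and open circles sets dim in both groups. The 5 called sets are 1 of Cdkn1a and 1 of Cdkn2b above 0, and 1 of Cdkn2c and 2 of Rbl1 below 0.

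Counted by probe set, 5 of 17 were called, 2 higher and 3 lower, where 15.1% of all probe sets were called (6.39% higher and 8.76% lower), and the groups of 8 of 17 did not overlap, against 35.9% of all. Rbl1 alone had more than 1 probe set called, both lower, so directions of called sets could be compared for this gene only. Without Ebf2-negative replicate 1 or replicate 3, 2 member probe sets were called, both of Rbl1, and 3 without Ebf2-negative replicate 2. Calls over all 45037 probe sets fell as well, from 6822 to 4076 without Ebf2-negative replicate 1. They fell to 4631 without Ebf2-negative replicate 2 and to 3526 without Ebf2-negative replicate 3.

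**Figure D3:**
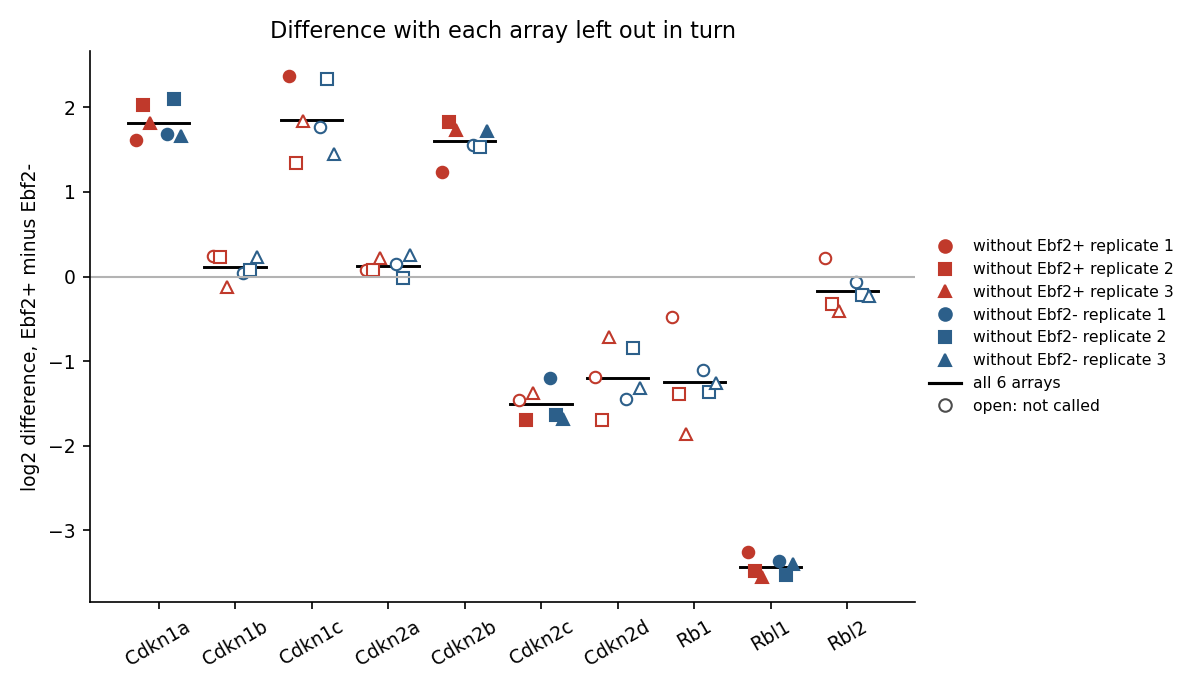
Log2 difference of each of the 10 genes, Ebf2-positive minus Ebf2-negative, with all 6 arrays (bar) and with each array left out in turn (symbols; filled where the adjusted p was under 0.05). Rbl1 stays between -3.55 and -3.26 and Cdkn1a between 1.61 and 2.10, while Rb1 runs from -1.86 to -0.48.

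Members of a family can be compared within an array, where scaling an array by a constant cancels. The 12 pairs within families were compared by the log2 signal of the first gene minus that of the second, and only the shift of this value between groups is read, since levels of different probe sets are not comparable. Rbl1 minus Rbl2 was -1.18, -1.82 and -1.84 on the Ebf2-positive arrays, against 1.57, 1.55 and 1.81 on the Ebf2-negative arrays. That shift of -3.26 was the largest, and the groups did not overlap. Cdkn2b minus Cdkn2c was -0.70, -2.35 and -1.51 in Ebf2-positive cells, against -5.33, -4.52 and -4.03 in Ebf2-negative cells, a shift of 3.11 with groups apart.

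Cdkn1a minus Cdkn1b was 2.24, 1.42 and 1.14 in Ebf2-positive cells, against -0.22, 0.55 and -0.62 in Ebf2-negative cells, so Cdkn1a moved up relative to Cdkn1b by 1.70 and the groups were apart. Rb1 minus Rbl1 shifted by 2.19 and Rb1 minus Rbl2 by -1.07, both without overlap. Cdkn1a minus Cdkn1c (-0.03) and Cdkn2c minus Cdkn2d (-0.31) overlapped. Groups were apart for 8 of the 12 pairs, each with the smallest two-sided exact permutation p that 3 against 3 arrays allow, 0.1, or 0.15 after Benjamini-Hochberg adjustment over the 12, so this test could not pass 0.05. The share over gene pairs in general was not counted, and 43.0% of single genes had groups apart. Pairs reuse the same genes, and all of these pairs but Rb1 minus Rbl2 hold a called gene. The count therefore adds no result to the single genes.

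**Figure D4:**
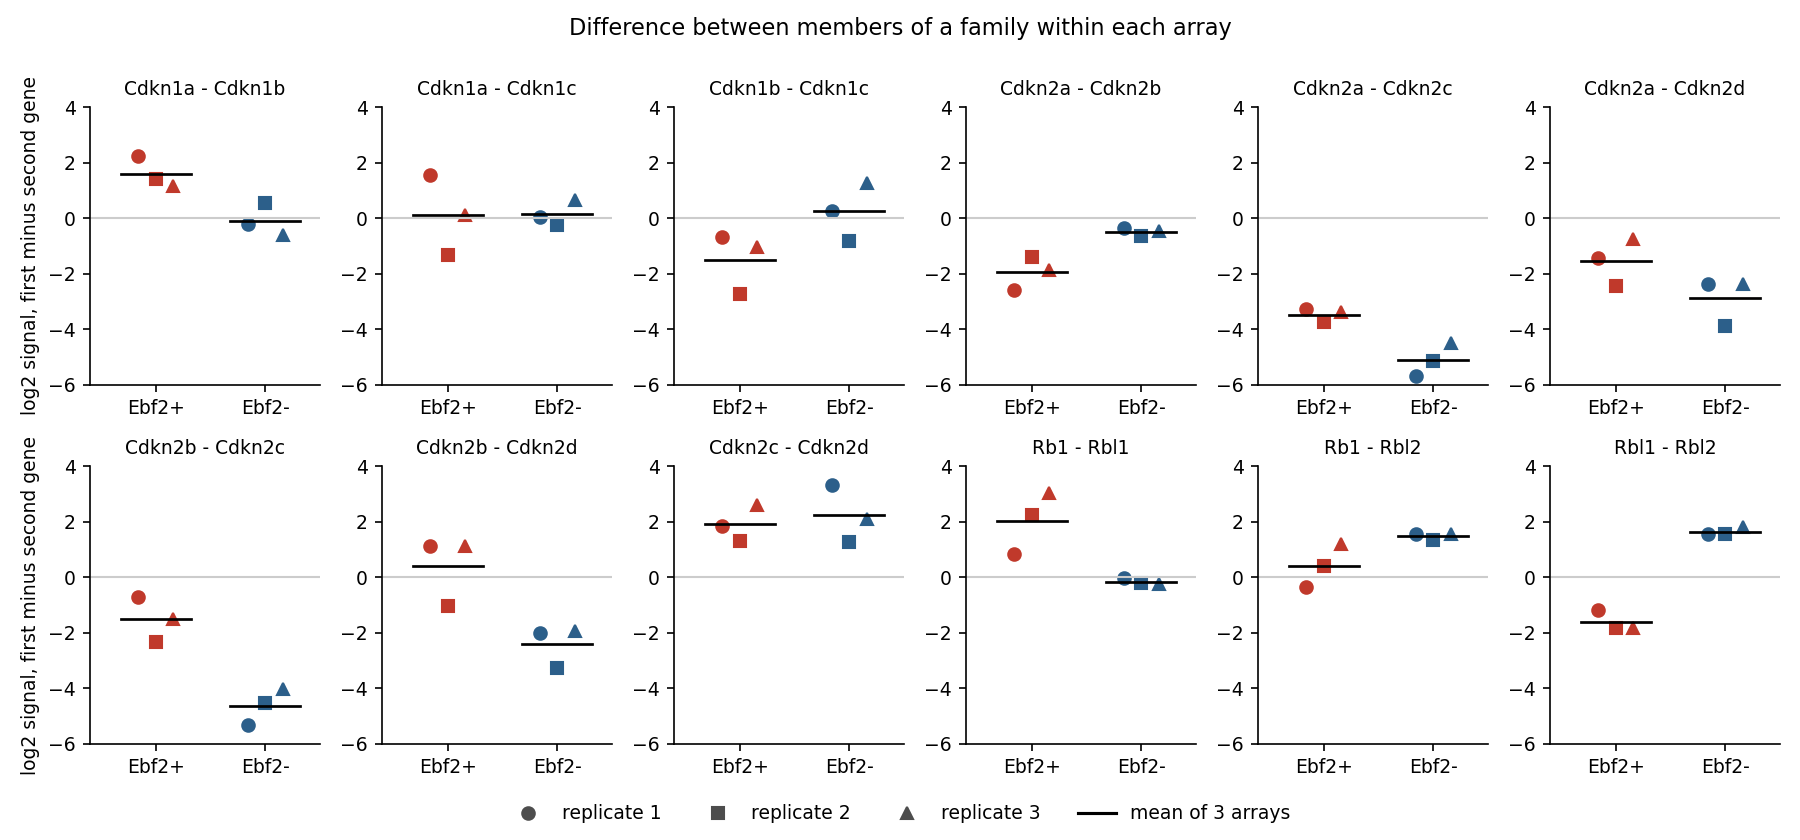
Log2 signal of the first gene minus the second within each array for the 12 pairs of family members, Ebf2-positive arrays on the left and Ebf2-negative arrays on the right of each panel, with bars at the mean of 3 arrays. Rbl1 minus Rbl2 has the largest shift between the groups, -3.26, and the zero line has no meaning because levels of different probe sets are not comparable.

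Cyclins and kinases, which the inhibitors act on, were mostly lower in Ebf2-positive cells. Of 12 G1 and S phase cyclin and kinase genes, 0 were higher and 8 lower, with a median difference of -2.35. Cyclin genes Ccne2 (-5.42) and Ccna2 (-4.00) and kinase genes Cdk1 (-3.59) and Cdk6 (-3.53) had the largest measured differences. Ccne2, and of the genes named below E2f8, E2f7, Mybl2, Bub1, Kif20a and Phlda2, were dim in Ebf2-positive cells, and Tbx2 was dim in Ebf2-negative cells, so their differences and places in the order are not exact. Dmrta1, also named below, was dim in both groups. Cdk4, the other INK4 partner, and Cdk2, the kinase held by CIP/KIP proteins, also fell, by 2.10 and 1.70, and were named after their values were seen. The D-type cyclins, likewise named after their values were seen, did not pass, with 1.27 for Ccnd1, 1.02 for Ccnd2 and -0.74 for Ccnd3 (adjusted p = 0.112, 0.140 and 0.120).

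Genes of E2F factors and their DP partners were lower in 7 of 10 cases and higher in 1, with a median of -1.83. Tfdp2, a DP partner, differed by -5.16, the repressor E2f8 by -4.90, the activator E2f2 by -3.29 and the repressor E2f7 by -3.11. The higher gene was E2f5, a factor that binds p130 and p107, with a mean of 8.43 in Ebf2-positive cells against 6.94 in Ebf2-negative cells (1.49, adjusted p = 0.00581), named after its value was seen. Of 7 genes for DREAM complex subunits and the related factors B-Myb and Foxm1, 0 were higher and 3 lower (median -0.98). Mybl2, the B-Myb gene, differed by -3.71, Lin54, a DNA-binding subunit of this pocket protein complex, by -1.96 and Rbbp4, a histone chaperone, by -0.98. Lin54 lost its call without any of 4 of the 6 arrays and Rbbp4 without Ebf2-negative replicate 2 or replicate 3. The count of lower genes was 1 without Ebf2-negative replicate 3.

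Genes that E2F and DREAM control were lower in most cases. Of 18 measured G1/S targets of E2F, 16 were lower and 0 higher (median -3.37), led by the replication licensing genes Cdc6 (-4.54) and Mcm5 (-4.34), the methylation maintenance factor Uhrf1 (-4.20) and thymidine kinase Tk1 (-4.19). The 2 that did not pass, named after their values were seen, were the thymidylate synthase gene Tyms (-1.19) and the licensing gene Cdt1 (-3.11, adjusted p = 0.0512). Of 19 measured G2/M targets of DREAM, 19 were lower (median -3.95), among them the division marker Mki67 (-5.13), the checkpoint kinase Bub1 (-5.01), the mitotic kinesin Kif20a (-4.65) and the spindle protein Nusap1 (-4.55). Rbl1, at -3.43, was thus near the median of the E2F target list. Erythroid markers moved with these genes, at a mean signal of 5.24, 4.70 and 4.84 in Ebf2-positive cells and 8.96, 9.09 and 8.94 in Ebf2-negative cells. Their part in the differences of Rbl1, Cdkn2c and the targets was not tested.

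**Figure D5:**
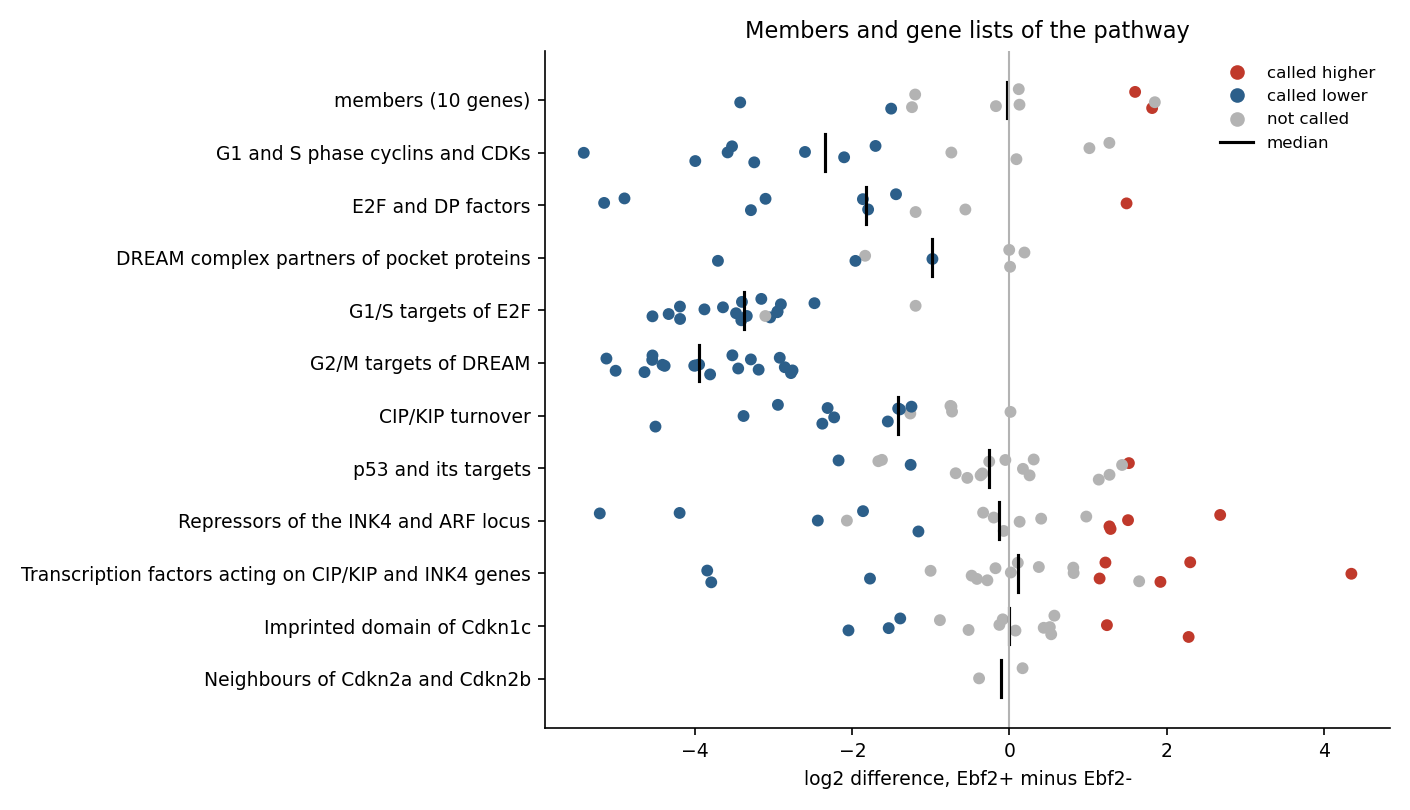
Log2 difference, Ebf2-positive minus Ebf2-negative, of the 10 genes and of each measured gene of the pathway lists, a dot a gene, coloured by call, with a bar at the median of each list. The G1/S and G2/M target lists have medians of -3.37 and -3.95, while the 10 inhibitor and pocket protein genes spread on both sides of 0.

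Genes that act on CIP/KIP proteins after translation were also lower in most cases. Of 15 turnover genes, 0 were higher and 10 lower (median -1.42), although 5 were lower without Ebf2-negative replicate 3. Dtl, which targets p21 for destruction in S phase, differed by -4.51, Cks2, a kinase subunit, by -3.39, Skp2, the ligase subunit that marks p27 for degradation, by -2.95 and its cofactor Cks1b by -2.38. Skp2 lost its call without Ebf2-negative replicate 1. Protein levels were not measured, so the Cdkn1b signal says nothing of its protein.

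Genes of the p53 pathway passed in 3 of 17 cases, beside 24.4% of all genes. Of these, 1 was higher and 2 lower (list median -0.26): Plk2, a stress-induced kinase, at 1.52, Aen, an apoptosis nuclease, at -2.18 and Zmat3, an RNA-binding protein, at -1.26. Zmat3 lost its call without Ebf2-negative replicate 3, and 2 genes were higher without Ebf2-positive replicate 1 or replicate 3. Mdm2, the feedback inhibitor of p53, named after its value was seen, differed by -0.26 (adjusted p = 0.487).

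Repressors of the INK4 and ARF locus split. Of 16 measured, 4 were higher and 5 lower (median -0.14), and 3 were lower without Ebf2-negative replicate 1 or replicate 3. The histone demethylase Kdm2b (-5.22) and the Polycomb subunits Ezh2 (-4.20) and Suz12 (-2.44) fell, while the T-box repressor Tbx2 rose by 2.68. The other higher members, named after their values were seen, were the Polycomb subunit Cbx7 (1.51), the T-box gene Tbx3 (1.29) and Ezh1 (1.27), the paralogue of Ezh2 found in resting cells. Mtap and Dmrta1, the genes that flank Cdkn2a and Cdkn2b on chromosome 4, did not pass (-0.39 and 0.17).

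Transcription factors known to act on CIP/KIP and INK4 genes also split, with 5 of 19 higher and 3 lower (median 0.11), and 3 higher without Ebf2-negative replicate 3. Klf4, an activator of Cdkn1a, averaged 11.42 in Ebf2-positive cells against 7.06 in Ebf2-negative cells (4.35, adjusted p = 0.00330), and Klf6, another, differed by 2.30. The erythroid factors Klf1 and Gata1, which also belong to the erythroid markers, fell by 3.85 and 3.80. Foxo1, an activator of Cdkn1b, rose by 1.92 and Myc, a repressor of Cdkn1a and Cdkn2b, fell by 1.78, both named after their values were seen.

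Neighbours of Cdkn1c in its imprinted domain on chromosome 7 split. Of 14 genes, 2 were higher and 3 lower (median -0.00452). Osbpl5, a lipid transfer protein, differed by 2.28, and Cars, a transfer RNA synthetase, and Nap1l4, a histone chaperone, by -1.54 and -1.39. Phlda2, the maternally expressed growth regulator close to Cdkn1c, differed by -2.05 (adjusted p = 0.0425), and its call was lost without any one array except Ebf2-positive replicate 3. Kcnq1ot1, the noncoding RNA that silences the paternal copies, named after its value was seen, differed by 0.53 (adjusted p = 0.431).

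The genes with the most similar profiles were found by the root mean square distance over the 6 arrays between log2 profiles, each centred on its own mean, among 9089 genes above the median gene, members left out. Group and replicate differences both enter this distance. For Rbl1 they were Cenpe, a kinetochore motor (0.148), Mtfp1, a mitochondrial fission protein (0.170), and Rcc1, a chromatin-bound exchange factor of mitosis (0.201). For Cdkn2b they were Inpp4a, a lipid phosphatase (0.182), Klc1, a kinesin light chain (0.213), and Kdelr2, a retrieval receptor of the secretory pathway (0.230). For Cdkn1c they were Rcn3, a calcium-binding protein of the endoplasmic reticulum (0.255), Ctsh, a lysosomal protease (0.289), and Cdc42ep2, an effector of Cdc42 (0.294), at larger distances.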

How the data were processed

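The authors deposited 1 linear RMA intensity per probe set and array (6 arrays, 45101 probe sets). The series design text and the submitters' processing notes state this. RMA scales the arrays to each other, which hides a difference in RNA per cell, and its version was not given. The deposited values did not share 1 distribution. Their medians were 14.0, 13.3 and 13.5 on Ebf2-positive and 12.9, 13.1 and 13.1 on Ebf2-negative arrays. Maxima were 18326, 18918 and 18424 on Ebf2-positive and 20035, 20142 and 20569 on Ebf2-negative arrays. Log2 was taken, and 64 control probe sets were left out. Genes were named from GEO's platform annotation (34945 probe sets with 1 gene, 932 with several, 9160 with none), and each gene was read by its brightest probe set naming only that gene. The 2 groups were fitted in limma 3.58.1 under R 4.3.3 (lmFit, eBayes, two-sided, Benjamini-Hochberg, threshold 0.05), over all genes or all probe sets. The number of arrays, 3 a group, limits the precision. The test was tried on simulated data (18193 genes, 3 arrays a group). It found 10.4% of 67 genes given a log2 change of 1, 55.2% of 67 given 2 and 90.9% of 66 given 4. Only these genes were changed, with independent normal errors, whereas 24.4% of genes were called in the data. The adjusted threshold differs with that share, so these rates need not hold for the data. Members and lists were chosen with earlier results of these data known. Named were all members, Ebf2, per list up to 4 called genes with the largest differences (up to 2 bright ones where none passed) and the 3 nearest profiles of the most changed member of each family; others are marked. Marker lists are given as counts, with Ebf1 named. Alternatives were scalings, a filter on dim probe sets, a pseudocount, variance models, array weights, a minimum difference (treat), the choice of probe set, the replicate number as a block and each array left out. Promoter sequences are RefSeq's, on GRCm38.p6; no protein sequences were used here. Python 3.11.15 and matplotlib 3.10.9 made the figures.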

Additional observations from a re-analysis of the deposited data

How the results depend on the processing

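Rbl1 kept its call and direction under all 19 alternatives. Its difference was smaller with the mean of its 4 probe sets, at -1.83 against -3.43 with the brightest. Of 189 member values under alternatives, 172 kept their side of the threshold, of which 6, all of genes without a call, changed sign: Cdkn1b (-0.15 with the mean of probe sets and -0.12 without Ebf2-positive replicate 3), Cdkn1c (-0.38 with poly-A centring), Cdkn2a (-0.02 without Ebf2-negative replicate 2) and Rbl2 (0.03 with quantile normalization and 0.21 without Ebf2-positive replicate 1). Poly-A centring, which lowers every difference by 2.23, turned Cdkn1a (-0.41) and Cdkn2b (-0.63) to lower without a call, and Cdkn1b (-2.11) and Cdkn2a (-2.10) to lower with one; it called 7 of the 10 genes and 13 of the 17 probe sets, all lower, and 15545 of all genes and 39970 of all probe sets. Requiring a log2 difference above 1 (treat) left 1 of the 10 genes and 2 of the 17 probe sets, all of Rbl1, and 1433 of all genes and 1804 of all probe sets. With each array left out in turn, 2690 to 4348 genes, 3526 to 6697 probe sets, 3 to 4 member genes and 2 to 5 member probe sets were called. Without Ebf2-negative replicate 3, 2690 genes and 3526 probe sets passed, and without Ebf2-negative replicate 1, 4076 probe sets. The dim filter tested 9 member genes, without Cdkn2a. The replicate numbers are not known to pair arrays: same-numbered arrays' deviations from their group means correlated at 0.05, 0.11 and 0.03, although each array correlated best with its own number. With the number as a replicate block, 4219 genes, 5999 probe sets, 5 member genes and 4 member probe sets were called; Cdkn1c then passed (1.85, adjusted p = 0.0304). Dim signals limit Cdkn2a, Cdkn2b in Ebf2-negative cells and the second sets of Cdkn1b and Rb1. The cause of these changes was not tested.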
